A study of Homo sapiens with 91 samples.

Results

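The 10 genes described here encode enzymes of glycolysis, the pathway by which a cell breaks glucose down to pyruvate and lactate: HK2, ALDOA, TPI1, GAPDH, PGK1, PGAM1, ENO1, PKM, LDHA and LDHB. They were chosen by name among the 57820 gene identifiers of the count files, and each was read from its own identifier, so that 100 identifiers of their processed pseudogenes were left out. RNA was measured by MATQ-seq, which copies the total RNA of as little as 1 cell and labels each copy with a random barcode, so that a barcode stands for 1 copied molecule. All 48 libraries analysed, of the 91 samples in the series, came from clone 1 of HEK293T, a transformed human embryonic kidney line grown in high-glucose medium with fetal bovine serum; the labels name no treatment. In 38 libraries the input was 1 cell, and in 10 it was a share of pooled and split material equal to 1 cell (an aliquot below). Setting the 2 kinds of library against each other asks how much more single cells differ from one another than repeated samples of the same pooled material do. One clone in culture stands for no other line or tissue, and neither a shared culture or day for cells and aliquots nor a single pool behind the aliquots is stated in the labels.

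Glycolysis first spends ATP to trap and split the sugar and then regains ATP while glyceraldehyde phosphate is turned into pyruvate. Lactate dehydrogenase passes electrons from NADH to pyruvate, which restores the NAD+ that the GAPDH step needs. In proliferating and transformed cells much of the glucose leaves as lactate even with oxygen present, and many genes of the pathway are targets of the hypoxia-inducible factors and of MYC.

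The exonic barcodes numbered 231131 ± 51823 per single cell (SD, n = 38, range 128322 to 326476) and 188547 ± 41723 per aliquot (SD, n = 10, range 152542 to 275215). Introns held 52.8% ± 8.27 of all barcodes in cells (SD, range 32.7 to 66.8) and 57.6% ± 1.66 in aliquots (SD, range 54.9 to 60.4), and no pair of libraries in a group agreed within sampling noise. Of 8 marker genes listed for HEK293T 7 were matched and 6 had at least 10 CPM (exonic barcodes, as counts per 1e6). They included IRS4, a signalling adaptor high in this line, at 935 CPM in cells and 1146 CPM in aliquots. The 10 markers of MCF10A and other basal epithelial cells summed to 14.4 CPM in cells (range 0 to 73.9) and 7.24 CPM in aliquots (range 0 to 29.8), with KRT17 and KRT6A at 0 in every library.

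Promoter sequences are shown first because the hypoxia-inducible factors bind a short core, ACGTG or GCGTG, and MYC and the carbohydrate-responsive factor bind an E-box such as CACGTG, which contains ACGTG. RefSeq (GRCh38.p14) gave 15 promoter windows of 250 bases before a transcription start for the 10 genes. Each was searched on both strands for ACGTG and GCGTG, and matches are in capitals, written as CACGT or CACGC where they lie on the other strand. The first 3 windows, of PGK1, ENO1 and LDHA, hold such letters, while the window of LDHB, the other lactate dehydrogenase gene, holds none. Ratios of cell spread to aliquot spread, given below, ran from 1.22 (HK2) to 2.93 (ENO1) among the genes with a match in at least 1 window. Among the genes without a match, PGAM1, LDHB and PKM, they were 1.21, 1.38 and 2.24. A relation between matches and spread was not tested.
PGK1 (chrX:78103998-78104247, plus strand): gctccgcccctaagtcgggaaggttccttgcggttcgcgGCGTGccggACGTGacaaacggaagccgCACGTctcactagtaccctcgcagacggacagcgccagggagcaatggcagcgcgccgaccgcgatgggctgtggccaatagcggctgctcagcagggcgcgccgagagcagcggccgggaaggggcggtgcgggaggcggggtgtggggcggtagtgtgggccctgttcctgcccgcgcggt
ENO1 (chr1:8878687-8878936, minus strand): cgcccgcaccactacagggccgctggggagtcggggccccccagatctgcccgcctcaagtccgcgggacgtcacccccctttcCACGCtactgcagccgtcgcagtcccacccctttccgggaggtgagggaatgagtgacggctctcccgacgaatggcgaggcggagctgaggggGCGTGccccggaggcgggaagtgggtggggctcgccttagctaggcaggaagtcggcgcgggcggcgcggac
LDHA (chr11:18394313-18394562, plus strand): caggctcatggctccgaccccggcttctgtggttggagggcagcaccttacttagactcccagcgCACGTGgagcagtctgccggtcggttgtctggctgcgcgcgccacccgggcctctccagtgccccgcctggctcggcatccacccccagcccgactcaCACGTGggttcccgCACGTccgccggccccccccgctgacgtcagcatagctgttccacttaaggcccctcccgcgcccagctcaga
LDHB (chr12:21657843-21658092, minus strand): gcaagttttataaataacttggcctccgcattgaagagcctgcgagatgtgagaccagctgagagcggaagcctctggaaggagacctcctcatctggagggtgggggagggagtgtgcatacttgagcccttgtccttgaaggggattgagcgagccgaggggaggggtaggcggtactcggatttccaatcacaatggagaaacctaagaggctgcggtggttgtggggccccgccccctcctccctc
The PGK1 window holds 3 separate places with a match, the ENO1 window 2, and the LDHA window 3, of which 2 are the E-box CACGTG. Either core stood in 11 of the 15 windows, beside 43.2% of 35116 RefSeq windows of the same length and 59.4% of the 16148 windows with at least 60% G and C. By gene, 7 of the 10 had a core in at least 1 window. HK2, ALDOA, TPI1 and LDHA have more than 1 window each, and no share by gene was counted over all genes. CACGTG stood in 4 of the 15 windows, 1 each of HK2, ALDOA, GAPDH and LDHA, beside 6.34% of all windows and 8.88% of the G- and C-rich ones. No core was found in the windows of PGAM1, PKM or LDHB. These are matches of letters only, and binding was not measured in these libraries.

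All 10 transcripts were found in every one of the 48 libraries, and per length of exon they spanned a wide range. GAPDH led with 496 ± 80.7 CPM per kb in single cells (SD, n = 38), followed by LDHB with 266 ± 73.9 CPM per kb. TPI1 at 191 ± 48.3 and ENO1 at 188 ± 37.6 CPM per kb did not differ beyond their spread. PKM (107 ± 19.9), ALDOA (100.9 ± 20.4), PGAM1 (100.2 ± 31.03) and LDHA (89.7 ± 23.8) formed a run of neighbours in CPM per kb whose SDs overlap. PGK1 had 63.6 ± 19.6 CPM per kb and HK2, at 13.9 ± 7.17, the lowest level per length. These values divide by all exons of the gene, and the order in the middle changed when the longest protein-coding transcript was used as the length. GAPDH and LDHB then led with 788 and 517 CPM per kb, ENO1 (423) and PKM (337) came ahead of TPI1 (292), and PGK1 (71.8) and HK2 (14.6) remained last.

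HK2 (ENSG00000159399.5) encodes a hexokinase that phosphorylates glucose and thereby traps it in the cell. Its level in single cells ran from 28.8 CPM in cell 37 over a median of 70.4 CPM to 195 CPM in cell 3. Aliquots ran from 35.1 over 70.1 to 117 CPM, so that 27 cells lay inside the aliquot range, 8 above it and 3 below it. A cell held 6 to 49 HK2 barcodes, so counting error was large. Counting alone gives a coefficient of variation (CV, the SD over the mean) of 23.2% in cells, where 51.6% was seen, and of 26.9% in aliquots, where 37.8% was seen.

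ALDOA (ENSG00000149925.12) encodes the aldolase that splits the phosphorylated fructose into a pair of triose phosphates. Single cells spanned 207 CPM (cell 17) to 535 CPM (cell 34) around a median of 380 CPM, and aliquots 346 to 555 CPM around 447 CPM. No cell exceeded the highest aliquot, 9 fell below the lowest, and the mean was 395 ± 79.8 CPM in cells (SD, n = 38) and 455 ± 56.8 CPM in aliquots (SD, n = 10). TPI1 (ENSG00000111669.10), the isomerase that interconverts the triose phosphates, had its higher mean in cells, 514 ± 130 CPM against 454 ± 59.3 CPM (SD). Its single-cell levels reached from 244 CPM (cell 3) to 739 CPM (cell 9) with a median of 524 CPM, while aliquots covered 330 to 520 CPM with a median of 472 CPM. The aliquot range contained 11 cells, with 21 cells above it and 6 below it.

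GAPDH (ENSG00000111640.10) oxidises glyceraldehyde phosphate and is often taken as a reference gene for expression. Levels in cells went from 923 CPM in cell 8 over a median of 1489 CPM to 2024 CPM in cell 15, and in aliquots from 1374 over 1651 to 1838 CPM. Most cells (23) lay within the aliquot range, 12 below and 3 above. Its CV of 16.3% between cells was exceeded by all but 2.19% of the other genes with at least 200 CPM, most of which have lower levels and so more counting error. The median CV in cells was 25.6% at 200 CPM or more and 22.7% at 500 CPM or more. The ratio of cell spread to aliquot spread of GAPDH was above that of 64.9% of the other genes with at least 200 CPM. PGK1 (ENSG00000102144.9), a kinase that makes ATP from bisphosphoglycerate, was far more uneven between cells. PGK1 ran from 107 CPM in cell 15 to 524 CPM in cell 6 with a median of 378 CPM, whereas aliquots held to 229 to 328 CPM with a median of 301 CPM. Only 6 cells were inside that range, 26 were above and 6 below, a 4.88-fold span in cells and a 1.43-fold span in aliquots. The aliquot CV of 13.03% was no larger than the 13.8% that counting alone gives, and the cell CV was 30.8%. A range over 38 libraries also tends to be wider than a range over 10.

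PGAM1 (ENSG00000171314.8) encodes the mutase that moves the phosphate of phosphoglycerate. In cells its level spanned 70.2 CPM (cell 1) to 432 CPM (cell 12) with a median of 250.03 CPM, and in aliquots 131 to 287 CPM with a median of 245 CPM. Of the cells 24 lay inside the aliquot range, and the aliquots themselves were scattered, with a CV of 23.04% against 30.96% in cells. ENO1 (ENSG00000074800.9), the enolase that makes phosphoenolpyruvate, had the tightest aliquots of the 10 genes. They held between 782 and 956 CPM around a median of 884 CPM, while cells ran from 590 CPM (cell 15) over 988 to 1433 CPM (cell 33). The aliquot CV of 7.02% was no larger than the 7.90% that counting alone gives, the cell CV was 20.0%, and 22 cells lay above and 5 below every aliquot.

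PKM (ENSG00000067225.13) encodes the pyruvate kinase of most tissues other than liver and red cells, and its exon counts do not separate the M1 and M2 splice forms. Its level reached from 443 CPM in cell 8 over a median of 916 CPM to 1298 CPM in cell 4, and in aliquots from 832 over 896 to 1063 CPM, with 22 cells inside that range. The next lowest cell had 640 CPM, so cell 8 stood alone at the bottom. LDHA (ENSG00000134333.9) encodes the lactate dehydrogenase subunit that predominates in muscle and in many glycolytic cells, and LDHB (ENSG00000111716.8) the one that predominates in heart. LDHA ran from 323 CPM in cell 8 over 530 to 1048 CPM in cell 18, and from 393 over 489 to 623 CPM in aliquots, with 25 cells inside the aliquot range. LDHB ran from 405 CPM in cell 21 over 789 to 1468 CPM in cell 36, and from 538 over 635 to 832 CPM in aliquots, with 18 cells inside, 14 above and 6 below.

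**Figure D1:**
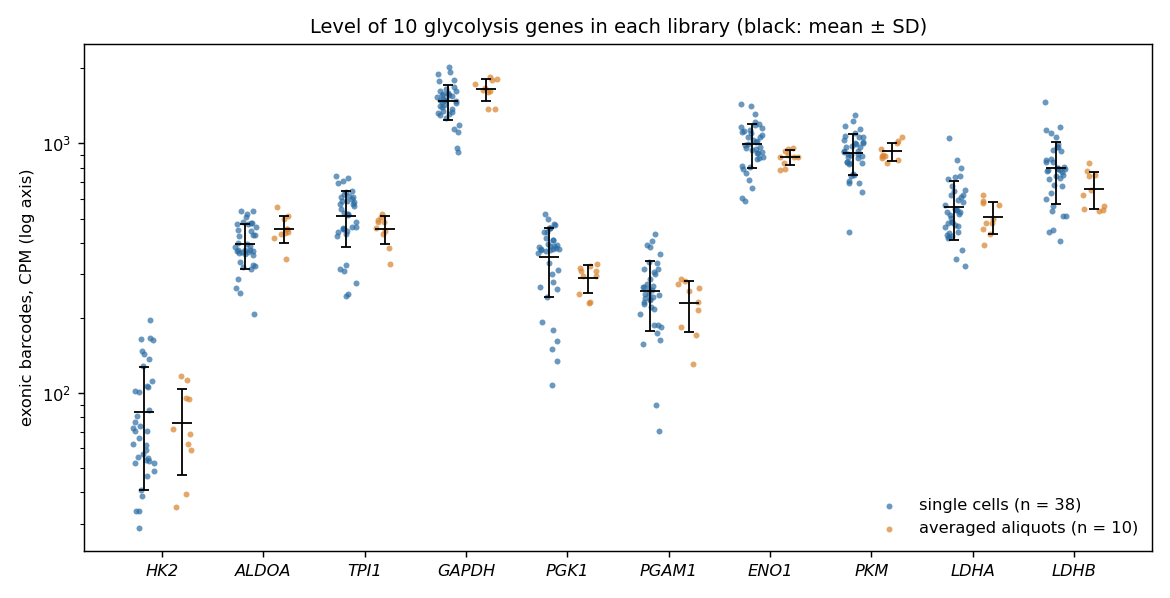
Level of each gene (exonic barcodes in CPM, log axis) in 38 single cells (blue) and 10 aliquots (orange), with black bars for the mean and SD. Cells reach beyond the aliquots at both ends for every gene except ALDOA, where 9 cells lie below and 0 above the aliquots, and 26 PGK1 cells lie above and 6 below all aliquots.

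Mean levels were set side by side without a test, as each kind of library comes from a single clone with no separate cultures named and stands for 1 sample when means are compared. The ratio of the cell mean to the aliquot mean was highest for PGK1 (351 ± 108 against 288 ± 37.5 CPM, SD, log2 ratio 0.28) and LDHB (794 ± 221 against 656 ± 111 CPM, log2 ratio 0.28). It was lowest for ALDOA (log2 ratio -0.20). Of the 10 genes 7 had the higher mean in cells, beside 53.4% of all tested genes, whose median log2 ratio was 0.02. GAPDH (log2 ratio -0.16) and PKM (-0.02) changed sign when exonic reads were counted in place of barcodes, to 0.09 and 0.14. The other 8 genes kept their sign with reads, with both other library scalings and with pseudogene barcodes added.

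Variation between cells was the question of the design, and none of the 10 genes passed the test for a larger spread in single cells. The limma test compared absolute deviations of log2 CPM from the group median over the 9992 genes that averaged 10 CPM or more, and 0 of the 10 genes reached an adjusted p of 0.05, the threshold used, beside 0.0% of all tested genes (0 genes). In the other direction 3 genes (0.03%) passed, none of them among the 10. At an unadjusted p under 0.05 the test gave 367 genes with larger spread in cells (3.67%), of the 10 genes only ENO1. A negative-binomial test of dispersion, tried as an alternative, called 23 genes (0.23%), and 0 of the 10. At an unadjusted p under 0.05 it gave 685 genes (6.86%), with PGK1, ENO1, PKM and TPI1 among them. These shares are over all tested genes and were not counted among genes of like level. A larger spread in cells was more frequent at higher levels, as given below.

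With barcodes of all libraries ENO1 had the highest ratio of cell spread to aliquot spread, 2.93, with a difference in spread of 0.15 ± 0.06 (SE) on the log2 scale (limma adjusted p = 0.569, negative-binomial adjusted p = 0.223). PGK1 followed with a ratio of 2.48 and a difference of 0.23 ± 0.14 (SE, limma adjusted p = 0.754, negative-binomial adjusted p = 0.2). The PGK1 ratio was 2.17 without cell 15, its lowest cell. PKM (ratio 2.24) and TPI1 (ratio 2.06) both had a limma adjusted p of 0.715, and without cell 8 the PKM ratio was 1.92. ALDOA had a ratio of 1.81 that was 2.83 without aliquot 7. The order depended on the setting. By exonic reads GAPDH led with 2.52, ahead of ENO1 with 2.29, and ALDOA had 1.16. With cells 1 to 10 alone PGK1 led with 4.08, and TPI1 had 3.54, PKM 3.13 and ENO1 2.70. Without aliquot 4 PGK1 (3.09) was ahead of ENO1 (2.78). GAPDH (1.56), LDHA (1.53), LDHB (1.38), HK2 (1.22) and PGAM1 (1.21) had the lower ratios, with limma adjusted p-values between 0.828 and 0.942.

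All 10 ratios were above 1, a direction shared by 54.9% of all tested genes, by 61.1% of the 5170 with at least 50 CPM, by 77.7% of the 1012 tested genes with at least 200 CPM and by 91.9% of the 198 with at least 500 CPM. The median ratio of the 10 genes was 1.69, beside 1.04 over all tested genes, 1.35 at 200 CPM or more and 1.83 at 500 CPM or more. All but HK2, with 82.5 CPM over all libraries, had a mean of at least 200 CPM, a level at which most genes had the larger spread in cells. Among genes with at least 200 CPM the ratio of ENO1 was above 94.8% and that of PGK1 above 91.1% of the others, and that of PGAM1 above 39.1%.

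**Figure D2:**
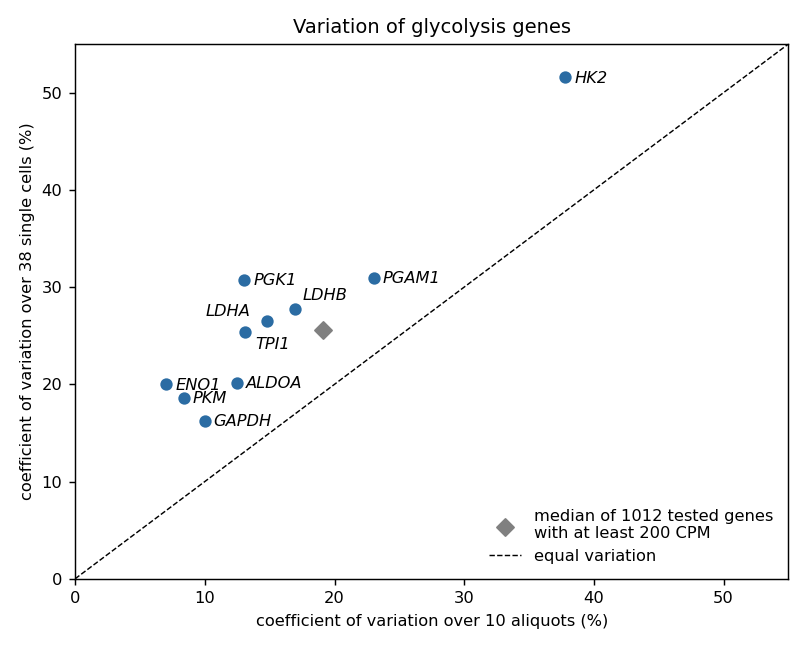
Coefficient of variation over 38 single cells against that over 10 aliquots for each gene, in percent, with equal variation as a dashed line and the median of 1012 tested genes of at least 200 CPM as a grey diamond. All 10 genes lie above the line, from GAPDH with 16.3% in cells and 9.98% in aliquots to HK2 with 51.6% and 37.8%.

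Across the 38 cells the 10 genes tended to be high or low together. The mean Spearman correlation over their 45 pairs was 0.313, with 43 pairs above 0 and 22 pairs (48.9%) at 0.3 or more. Pairs of the 1003 other genes with at least 200 CPM had a mean of 0.032, with 12.01% of pairs at 0.3 or more. Over the 10 aliquots the mean for the 45 pairs was 0.188 with 15 pairs (33.3%) at 0.3 or more, beside 20.1% of the other pairs. These correlations are descriptions, since the genes of a library share its depth and scaling. Of the 1012 tested genes with at least 200 CPM only 198 had at least 500 CPM, and counting error weakens correlations at lower counts. Pairs at 500 CPM or more were not computed. The mean of the 45 pairs in cells was lowest, 0.268, without cell 8, 0.285 without cell 1, and highest, 0.332, without cell 15.

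The pattern was not even across the pathway. TPI1, PGK1, PGAM1, ENO1 and LDHB correlated with one another at a mean of 0.608, between 0.381 for PGAM1 with ENO1 and 0.684 for TPI1 with PGK1. GAPDH and PKM were the closest pair of all at 0.715, and with LDHA they made a set of 3 with a mean of 0.513. Pairs across these sets had a mean of 0.243, and HK2 and ALDOA correlated with the other 8 genes at a mean of 0.156. The correlations of ALDOA with LDHA (-0.04), TPI1 with LDHA (-0.03) and TPI1 with PKM (0.03) were near 0. These sets were drawn after the correlations in cells were seen, so their higher means there follow in part from that choice. In the aliquots the same sets had means of 0.177 and 0.164, and pairs across them a mean of 0.240. Single pairs in the aliquots ranged from -0.39 for ALDOA with LDHB to 0.733 for TPI1 with ENO1.

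**Figure D3:**
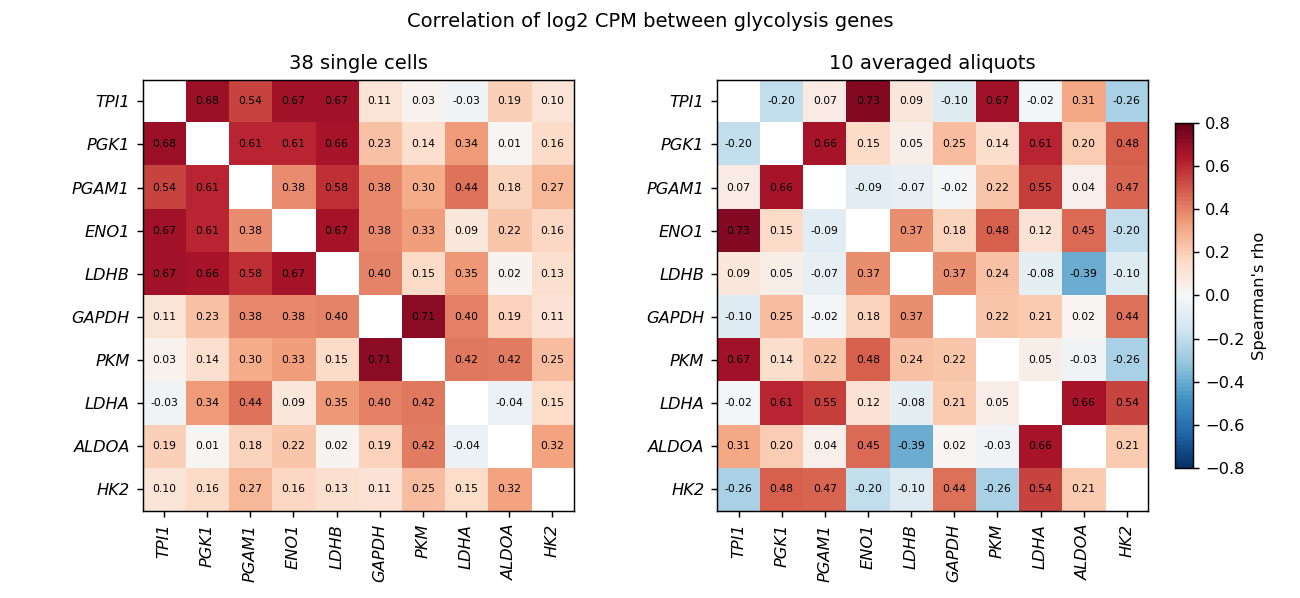
Spearman's rho of log2 CPM between each pair of genes over 38 single cells (left) and 10 aliquots (right). In cells the upper left square of TPI1, PGK1, PGAM1, ENO1 and LDHB has a mean of 0.608 and the pair of GAPDH and PKM 0.715. In aliquots the same square has a mean of 0.177. The square was drawn after the correlations in cells were seen, so its higher mean there follows in part from that choice.

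Summed over the 10 genes, glycolysis transcripts made up 0.633% of exonic barcodes in a cell and 0.615% in an aliquot. The sum was 6341 ± 951 CPM in cells (SD, n = 38), from 3764 CPM in cell 8 over a median of 6394 CPM to 7954 CPM in cell 36. In aliquots it was 6122 ± 370 CPM (SD, n = 10), from 5605 over 6091 to 6795 CPM. The CV was 14.99% in cells and 6.04% in aliquots, and 13 cells lay above all aliquots, 5 below and 20 between them. In cell 8 GAPDH, PKM and LDHA were each the lowest of 38 cells, while PGAM1 was the 10th lowest. Cell 36 had the highest LDHB, at 1.86 times the median cell, and the lowest intronic share of all cells, 32.7%.

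The summed level was lower in cells with a larger intronic share. Over the 38 cells rho was -0.685, beside a median of -0.127 over single genes with at least 200 CPM, which carry more counting error than a sum. It was -0.63 without the 2 cells farthest from the median share and between -0.726 and -0.659 with 1 cell left out. TPI1 (-0.683), ENO1 (-0.649), LDHB (-0.608), PGK1 (-0.536), PGAM1 (-0.523) and GAPDH (-0.475) had the strongest relations, and LDHA (-0.06), ALDOA (-0.13) and HK2 (-0.16) the weakest. The share itself was lower in cells with a higher number in their label (rho -0.532), and with a linear trend on that number taken out the relation of the sum was -0.575. When the linear relation with the intronic share was taken out of each gene, a step chosen after the data were seen, the mean over the 45 pairs was 0.229 with 16 pairs at 0.3 or more. Pairs of the other genes with at least 200 CPM then had a mean of 0.021, with 9.53% of pairs at 0.3 or more. The set from TPI1 to LDHB then had a mean of 0.423, and that of GAPDH, PKM and LDHA 0.496. The part of the intronic share in these relations was not tested further.

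**Figure D4:**
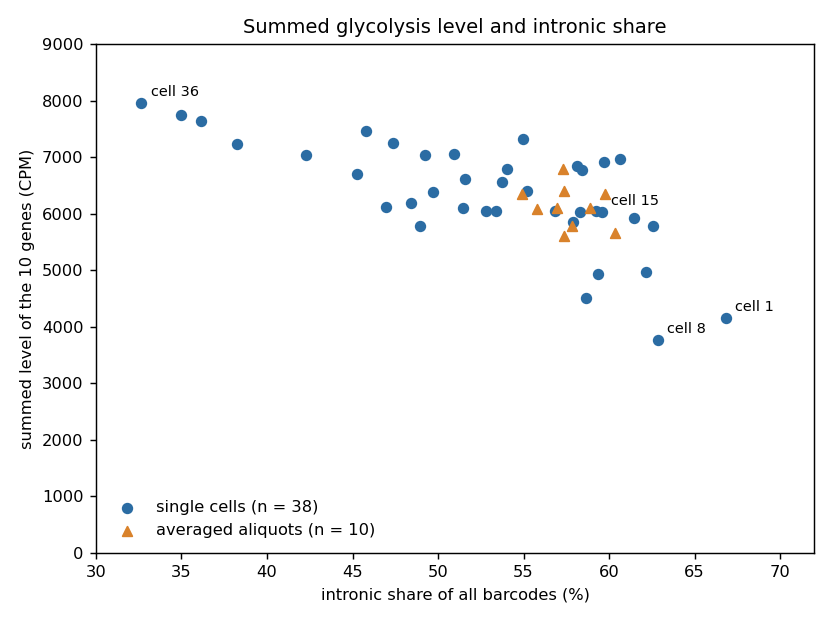
Summed level of the 10 genes in CPM against the intronic share of all barcodes in percent, for 38 single cells (blue circles) and 10 aliquots (orange triangles). The sum is 7954 CPM in cell 36 at a share of 32.7% and 4156 CPM in cell 1 at 66.8%, with cell 8 lowest at 3764 CPM, and the aliquots lie between 5605 and 6795 CPM.

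The sum was also related to cell-cycle genes. Its rho was 0.524 with the mean score of 17 G1/S genes, and -0.294 with that of 18 G2/M genes. Of all tested genes 1.44% were as far from 0 with the G1/S score and 14.1% with the G2/M score, so the latter value was a common one. Over single genes with at least 200 CPM the median distance from 0 was 0.188 and 0.163. Single genes carry more counting error than a sum, which makes values far from 0 rarer among them. A relation of the G1/S score to the intronic share was not tested. LDHB (0.528) and GAPDH (0.471) had the highest correlations with the G1/S score, and GAPDH (-0.484) the lowest with the G2/M score. The sum did not follow depth (rho -0.004 with exonic barcodes), but the LDHA level was lower in cells with more exonic barcodes (rho -0.574), beside a median distance from 0 of 0.172 over genes with at least 200 CPM. The number of LDHA barcodes in a cell was between 76 and 178, with a CV of 21.9% and a rho of 0.398 with the cell's exonic barcodes, whereas TPI1 barcodes had a rho of 0.819. With every library thinned to 128322 exonic barcodes the LDHA relation was -0.513.

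Outside the 10 genes, among 5073 genes with at least 50 CPM, those most like the summed level over the 38 cells included RPLP0 (rho 0.795), RPSA (0.793) and RPS23 (0.779), which encode ribosomal proteins, and SF3B1 (0.774), which encodes a splicing factor. The lowest values were those of GABBR1 (-0.707), a GABA receptor subunit, N4BP2L2 (-0.652) and MAPK8IP3 (-0.624), a scaffold of kinase signalling and axonal transport.

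The lactate dehydrogenase subunits could be compared within a library, where no scaling between libraries enters. LDHA made up 41.6% ± 7.34 of LDHA and LDHB barcodes in cells (SD, n = 38), from 27.7% in cell 37 over 40.9% to 59.1% in cell 15, and counting alone gives an SD of 2.91 percentage points. In aliquots the share was 43.9% ± 5.77 (SD, n = 10), from 32.1% over 46.3% to 50.3%. LDHB was thus the more frequent transcript in most libraries, and LDHA exceeded it in 5 of 38 cells and 1 of 10 aliquots. These shares are of barcodes and were not divided by length. The LDHA share was lower in cells with a higher number in their label (rho -0.617, and -0.573 with thinned libraries), which was not seen along the aliquot number (-0.042). Its rho was -0.583 with the exonic barcodes and 0.530 with the intronic share of the cell, and with the trend on the number taken out these values were -0.418 and 0.370. What the number in the label stands for is not given, and its part in the share cannot be told apart from that of depth and intronic share.

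**Figure D5:**
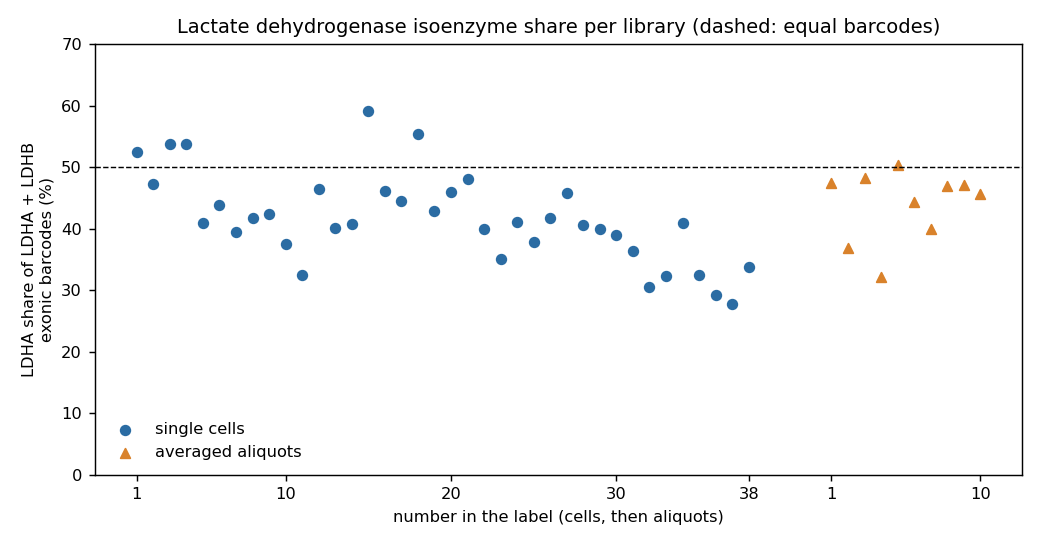
LDHA share of LDHA and LDHB exonic barcodes in percent for each library, ordered by the number in its label, for 38 single cells (blue circles) and 10 aliquots (orange triangles), with equal barcodes as a dashed line. Shares in cells range from 59.1% in cell 15 to 27.7% in cell 37 and aliquots from 32.1% to 50.3%.

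In the other isoenzyme pairs, aldolase and enolase came almost wholly from 1 gene. ALDOA made up 99.8% of ALDOA and ALDOC barcodes in cells and 100% in aliquots, and ALDOC had 5 barcodes in all. ENO1 made up 96.6% ± 4.79 of ENO1 and ENO2 barcodes in cells (SD, n = 38) and 97.0% ± 1.97 in aliquots (SD, n = 10). Hexokinase was the exception, since HK2 made up 30.3% ± 11.9 of HK1 and HK2 barcodes in cells and 32.4% ± 11.6 in aliquots, so that HK1, the hexokinase of most tissues, was the more frequent. HK2 exceeded HK1 in 3 cells and in 0 aliquots. The liver and red-cell pyruvate kinase PKLR had 4 barcodes over all 48 libraries.

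Cell 15 was singled out after its values were seen, and with 128322 exonic barcodes it was the shallowest of the 48 libraries. It had the lowest PGK1 (107 CPM, 14 barcodes) and the lowest ENO1 (590 CPM, 77 barcodes) of the 38 cells together with the highest GAPDH (2024 CPM). ENO2, the enolase known from neurons, had its highest level there, 238 CPM from 31 barcodes, beside 99.4 CPM in the next cell. The ENO1 share of ENO1 and ENO2 was 71.3% in that cell, the lowest, and the LDHA share was the highest. The CV of ENO2 over cells was 126% with cell 15 and 86.8% without it.

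Introns gave a readout of the same genes that exon barcodes do not use. In cells the intronic share of a gene's barcodes ran from 0.771% ± 0.822 for GAPDH to 12.8% ± 7.16 for LDHB (SD, n = 38), apart from HK2 with 46.9% ± 20.6. With the barcodes of a group pooled before the share was taken, the median over the 9992 tested genes was 42.98% in cells and 49.1% in aliquots. Over those with at least 200 CPM it was 19.2% and 24.2%. Pooled in the same way, GAPDH had 0.706% in cells and 1.19% in aliquots, LDHB 11.9% and 17.2%, and HK2 51.4% and 46.4%. For 9 of the 10 genes the mean share was lower in cells than in aliquots, such as 12.05% against 18.96% for ENO1 and 11.1% against 19.3% for PGK1, and HK2 was the exception (46.9% against 44.3%). Both medians over tested genes were lower in cells as well, so this direction was not particular to the 10 genes. How many of all tested genes had the lower share in cells was not counted. Exonic and intronic levels of the same gene were weakly related across cells, with rho between -0.16 for GAPDH and 0.259 for LDHA, from 61 to 1144 intronic barcodes per gene over all cells.

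Further genes of the pathway and its branches had median spread ratios near the 1.04 of all tested genes. Of 33 other glycolysis genes, among them further isoenzymes and transporters, 13 were tested, 8 had the larger spread in cells with a median ratio of 1.11, and 0 passed limma or the negative-binomial test, with 0 at an unadjusted limma p under 0.05. BSG, the chaperone of lactate transporters, had 482 CPM in cells and in aliquots and a ratio of 1.82. GPI, which isomerises glucose phosphate, had 351 and 409 CPM, the lactate transporter SLC16A1 209 and 216 CPM, and PFKFB2, which sets the level of an activator of phosphofructokinase, a ratio of 1.52. Of 37 genes for the fates of pyruvate and for branches of glycolysis 32 were tested, 18 had the larger spread in cells with a median ratio of 1.05, and 0 passed either test, with 1 at an unadjusted limma p under 0.05. That gene was TKT, the transketolase of the pentose phosphate pathway, with 442 ± 104 CPM in cells and 580 ± 57.2 CPM in aliquots (SD) and a ratio of 2.35 (limma adjusted p = 0.62). PHGDH, which draws phosphoglycerate into serine synthesis, had 233 and 228 CPM, MDH2, the mitochondrial malate dehydrogenase, 227 and 243 CPM, and DLD, a subunit of pyruvate dehydrogenase, a ratio of 1.94.

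Among regulators and targets of the hypoxia-inducible factors and of the carbohydrate-responsive factor outside glycolysis, 17 of 18 genes were matched, 13 were tested, 7 had the larger spread in cells with a median ratio of 1.07, and 0 passed either test, with 1 at an unadjusted limma p under 0.05. NDRG1, a gene induced by hypoxia, was that 1, with 126 CPM and a CV of 79.5% in cells and 146 CPM and a CV of 22.9% in aliquots (ratio 2.63, limma adjusted p = 0.611). VEGFA, the vascular growth factor, averaged 74.4 CPM in cells (CV 78.3%) and 84.5 CPM in aliquots (CV 30.96%) (ratio 1.96). MLXIP, a glucose-sensing transcription factor, had 239 CPM in cells and 175 CPM in aliquots, and ARNT, the partner subunit of the hypoxia-inducible factors, 84.0 and 105 CPM. HIF1A itself had 8.78 CPM in cells and was below the filter.

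Pseudogenes and neighbours limit how exactly several of the genes can be read. The 61 pseudogene identifiers of GAPDH held 7.01% as many barcodes as GAPDH, and the 4 of TPI1 held 11.9% as many as TPI1, with no more than 1.05% for the other genes. TPI1P1 (626 barcodes), GAPDHP35 (505) and GAPDHP1 (252) had the most, and how reads were divided between these near-identical copies is not given. By GENCODE, exons of GAPDH overlap those of AC006064.4 on the other strand, which held 1765 barcodes, those of HK2 overlap AC019069.1 on the other strand (147, beside 859 barcodes of HK2), those of TPI1 overlap SPSB2 on the other strand (263) and those of PGK1 overlap ATP7A on the same strand (260). The sources do not state if strand was used in counting, so barcodes of such neighbours and of the enzyme genes cannot be told apart where they overlap.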

How the data were processed

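The deposited files of 48 libraries hold whole-number counts per gene, which the authors did not normalize: exonic and intronic reads and random barcodes. Per the submitters' processing notes TopHat, HTSeq and the human build hg19 were used, with no versions given. The other 43 samples were not analysed here. Exonic barcodes were scaled with TMM factors of edgeR 4.0.16 to CPM. Rows with no symbol made up 1.59% of exonic barcodes. Symbols, exon lengths and overlaps came from GENCODE release 29, which is on another build than the counts, and the promoter windows printed are RefSeq's on GRCh38.p14, not positions of the counted reads. Genes averaging 10 CPM or more (9992) were tested two-sided with limma 3.58.1 (R 4.3.3): the absolute distance of log2 CPM (prior count 1) to the median of its group, corrected for group size, was compared between cells and aliquots with trended, robust moderation and Benjamini-Hochberg adjustment. A negative-binomial likelihood-ratio test of separate against shared dispersions (60 values from 0.001 to 20, Python 3.11.15) was the alternative. Both were tried on simulated data in which the variation added between cells was larger than that of any of the 10 genes. Those data therefore do not show whether either test would find a spread of the size seen here. Other settings were DESeq2 1.42.0 size factors, total barcodes, reads, thinning, other filters, a replicate block and each library left out. P-values measure the spread between these libraries, which may be technical. No libraries were duplicates: the lowest chi-square per degree of freedom of a pair was 2.25 for cells and 2.09 for aliquots. Counting errors leave out every other source of error.

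The genes and lists were chosen with earlier results of these data known, so the shared movement of the 10 genes is no independent support of those results. Besides the 10, the rule named, per list, genes passing limma, the 3 highest by level and the 2 with the highest spread ratio, the 5 highest and 3 lowest correlations with the summed level, and the 3 pseudogenes with most barcodes. Some items are not reported here. Isoenzymes, markers, overlapping genes and HIF1A were added once their values had been seen.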

Additional observations from a re-analysis of the deposited data

How the results depend on the processing

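In 893 recomputed values 863 kept their direction, their side of the threshold and, for counts and levels, their size, and 30 moved. The 610 recomputed spread ratios of the 10 genes all kept their direction and none passed the threshold, with a lowest adjusted p of 0.2 (PGK1, negative-binomial test). Their sizes moved by over 1.5 times for ALDOA (1.16) and GAPDH (2.52) by reads, for PGK1 (4.08), TPI1 (3.54) and PGAM1 (2.01) with cells 1 to 10, and for ALDOA without aliquot 7. Ratios of squared deviations and of negative-binomial dispersions are on other scales and are not in that list. The aliquot dispersions of PGK1 and ENO1 were 0.001, the lowest value tried. Over all genes the count with larger spread in cells was 0, and it was 2 with no filter on low counts and 23 by the negative-binomial test. The count with larger spread in aliquots was 3, and it was 5 with no filter, 1 at 50 CPM or more, with squared deviations, with thinned libraries and by the negative-binomial test, and between 0 and 3 with 1 library left out. It was 0 without aliquot 5. The causes were not tested. Cells and aliquots share the numbers 1 to 10, and a fit of these 20 libraries with the number as a replicate block called 0 genes in either direction, as did the same libraries without the block, a setting added after the data were seen. At an unadjusted limma p under 0.05 the blocked fit gave 410 of 9978 tested genes with larger spread in cells and 143 in aliquots. Those in cells included 3 of the 10 genes (TPI1, PGK1 and PKM), all with at least 200 CPM. With all libraries, 77.7% of tested genes at that level had the larger spread in cells. Deviations of same-numbered libraries correlated between -0.038 and 0.033 over 10 pairs, and 1 library correlated best with its own number, so the numbers were not taken as pairs. The mean correlation of the 45 pairs was 0.299 with total barcodes, 0.275 with thinned libraries and 0.309 with the trend on the label number removed. HK2, with 6 to 49 barcodes per cell, is the gene whose values depth limits most.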

Other observations

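Reads and barcodes gave the 10 genes the same order of mean CPM in cells but different sizes. By exonic reads GAPDH had 2181 ± 495 CPM in cells (SD, n = 38) beside 1478 ± 240 CPM by barcodes, and PGAM1 167 ± 57.8 beside 257 ± 79.7 CPM. For the other 8 genes the mean by reads lay within 1 SD of the mean by barcodes.

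LDHC, the lactate dehydrogenase subunit known from testis, had 72 exonic barcodes over the 48 libraries, 7.20 ± 7.61 CPM in cells (SD, n = 38) and 3.70 ± 4.50 CPM in aliquots (SD, n = 10), and lay below the filter for testing. The phosphofructokinase genes, whose product is a main control point of glycolysis, were all present, PFKL at 145 ± 45.5 CPM in cells and 176 ± 47.9 in aliquots, PFKP at 129 ± 69.0 and 104 ± 48.7, and PFKM at 86.6 ± 38.7 and 73.4 ± 46.0 (SD). Their ratios of cell spread to aliquot spread were 1.22, 1.11 and 0.652, with limma adjusted p-values between 0.784 and 0.968. The glucose transporter SLC2A1 had 49.0 ± 26.9 CPM in cells and 45.2 ± 21.96 in aliquots (SD), and SLC2A3, known from neurons, 2.95 and 3.39 CPM. These genes were chosen after their values were seen.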
